A study of Sus scrofa with 22 samples.

Results

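The genes described here are 10 components of canonical Wnt signalling, counted by RNA sequencing in foliate papillae and taste organoids of the pig. They were taken by name out of 27376 genes counted in 16 libraries and 29850 genes counted in the 6 libraries of a second organoid experiment. They comprise the R-spondin receptors LGR4, LGR5 and LGR6, the ubiquitin ligases RNF43 and ZNRF3, the feedback inhibitors AXIN2, NOTUM, NKD1 and APCDD1, and the transcription factor LEF1. All 10 had a row in both annotations.

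In the Wnt pathway, secreted Wnt proteins bind Frizzled and LRP receptors, which stops a cytoplasmic complex from destroying β-catenin, and β-catenin then joins TCF and LEF1 in the nucleus to switch on target genes. R-spondins bind LGR4, LGR5 or LGR6 and take the ligases RNF43 and ZNRF3 off the cell surface, where these would otherwise send Frizzled receptors for breakdown. Several of the target genes, AXIN2, NOTUM, NKD1, APCDD1, RNF43 and ZNRF3 among them, dampen the pathway in turn, and in mice LGR5 and LGR6 mark progenitors of taste cells.

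Foliate papillae, which hold taste buds along the edges of the tongue, were sequenced from 5 pigs, together with organoids at passage 1 grown from the same 5 animals. The sources used here give no breed, age or sex of the pigs. In a first medium experiment, 3 organoid libraries were grown in LPM, a culture medium, and 3 in LPM(-)FGF10, which differed by the missing growth factor FGF10 (100 against 0 ng/ml). In a second, 3 libraries were grown in LPM, and 3 others changed at day 10 from LPM to CQ, in which they stayed until day 16 or 17. The labels call all organoids a foliate cell line made of stem cells and mature taste cells. Sample titles call the replicates of the first medium experiment biological and only number those of the second. They do not say from how many pigs the organoids of the media experiments came or how their replicates were made. Where replicates were not separate cultures, p-values measure only technical spread. For the first 16 libraries the labels give a medium with R-spondin 2 (500 ng/ml), Wnt3a (100 ng/ml) and CHIR99021, an inhibitor of the kinase GSK3 (2.5 µM), so each organoid library of those 16 had the pathway stimulated from outside, with FGF10 or without it. The sources used here give neither the composition of CQ nor the LPM recipe of its controls. They also give no harvest day for those LPM libraries, so culture age and medium cannot be told apart, and papillae and organoids were extracted with different RNA kits, which cannot be told apart from tissue against culture.

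Library totals ran from 14.67 to 27.77 M counts. Levels are CPM, the counts of a gene relative to the library total, scaled by the trimmed mean of M values (TMM) within each comparison. Genes are named as called where edgeR's quasi-likelihood test gave an adjusted p under 0.05 (Benjamini-Hochberg, over all genes tested). The CQ libraries stood apart. They detected 14014 to 16005 genes against 17489 to 17920 in the LPM libraries beside them, and their replicates scattered more at low counts. Genes with a mean of 10 to 30 counts had a median variance-to-mean ratio of 12.61 in CQ and 1.73 in LPM. It was 3.13 in papillae and 4.87 in passage 1 organoids. A group without counts was given a limit of 3 counts over the group, raised to 37.8 counts (0.804 CPM) in CQ alone because of its ratio. The LPM libraries beside CQ were uneven too. Relative to sampling noise, the mean squared deviation between 2 replicates was 53.8 and 36.15 for LPM pairs with replicate 3, and 6.16 for the other pair. In CQ it ran from 16.44 to 18.87. Intervals, and limits outside CQ, cover counting error only, and a fold given as at least takes the counts of the other group as exact. The limit in passage 1 organoids was not raised for their ratio of 4.87. Folds given as at least there are therefore not comparable with those in CQ. The keratins KRT5 and KRT8 had counts in every library. TRPM5, a channel of taste cells, was at 20.0 ± 10.9 CPM in papillae and 2.22 ± 0.7 CPM in passage 1 organoids (SD, n = 5 each), and had counts in every library but 1 in CQ.

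The genes are spread over 7 chromosomes of Sscrofa11.1, the build whose positions the files use. LGR4 spans 32871837 to 32979150 on the plus strand of chromosome 2, LGR5 spans 35463257 to 35595234 on the plus strand of chromosome 5, and LGR6 spans 24358946 to 24454430 on the plus strand of chromosome 10. RNF43 lies on the minus strand of chromosome 12 at 34631574 to 34695021 and ZNRF3 on the plus strand of chromosome 14 at 46092000 to 46241327. Of the inhibitors, AXIN2 lies at 12311293 to 12343207 (minus strand) and NOTUM at 1033814 to 1044412 (plus strand), both on chromosome 12, NKD1 at 34223888 to 34319584 and APCDD1 at 97991418 to 98026590, both on the minus strand of chromosome 6. LEF1 spans 113824511 to 113944078 on the plus strand of chromosome 8. Values are sums over all exons of a gene. Exon overlap with a neighbour was limited to AXIN2, which shares 55 bases with CEP112, and LEF1, which shares 148 bases with genes on the opposite strand. CEP112 lies on the same strand as AXIN2, and strand was ignored in counting, so reads in those bases cannot be assigned to 1 gene.

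Papillae were compared with the passage 1 organoids of the same pigs, which shows how these genes differ between the intact tissue and its cultured epithelium. In organoids the receptor LGR4, the ligase ZNRF3, the inhibitor AXIN2 and the transcription factor LEF1 rose, by 2.39-fold to 2.98-fold, while LGR5 and NKD1 fell to nearly no counts and APCDD1 fell by a smaller step. LGR6, RNF43 and NOTUM did not pass the test. Of the 10 genes, 7 were called, 4 higher and 3 lower, in a comparison that called 67.5% of all 16311 genes, 32.4% as higher and 35.1% as lower. In 4 of the 10 the groups did not overlap, with LGR4 and ZNRF3 higher and LGR5 and NKD1 lower, as was so for 54.1% of all genes tested, 24.5% higher and 29.6% lower. The median log2 fold change of the 10 was 0.64, beside -0.01 over all genes tested.

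Among the receptors, LGR4, the most widely expressed of the R-spondin receptors, was at 28.6, 19.5, 19.6, 23.5 and 31.8 CPM in the papillae of pigs 1 to 5. In the organoids of the same pigs it was at 85.7, 56.5, 92.5, 38.5 and 61.1 CPM. Every organoid library lay above every papilla library, and the mean went from 24.6 ± 5.50 to 66.9 ± 22.1 CPM (SD, n = 5 each), a 2.72-fold rise with a log2 fold change of 1.44 ± 0.24 (SE; edgeR adjusted p = 0.00027).

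LGR5, a receptor and target gene that marks stem cells in the gut and progenitors in the posterior tongue, was low in every papilla, at 0.618, 2.46, 0.862, 1.08 and 1.41 CPM, which were 114 counts in all. The organoids had 2 counts, both in pig 3 (0.088 CPM), and 0 in the other 4 libraries, so the groups did not overlap. The ratio of the scaled sums was 86.6, with an exact 95% interval of 23.4 to 724, and LGR5 was called lower (edgeR adjusted p = 4.75e-05). With counts this low, fewer LGR5 cells and less RNA per cell cannot be told apart, which holds for every value from these bulk samples.

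LGR6, the receptor that marks taste progenitors beside LGR5 in mice, differed widely between the organoids of different pigs. It was at 12.1, 25.5, 26.3, 13.4 and 24.4 CPM in the papillae and at 11.6, 85.2, 9.94, 183 and 39.5 CPM in the organoids. It was higher in the organoids of pigs 2, 4 and 5 and lower in those of pigs 1 and 3, and the groups overlapped. The log2 fold change of 1.70 ± 0.71 (SE) missed the threshold (edgeR adjusted p = 0.051). Without the organoids of pig 4 it was 0.86 (adjusted p = 0.202), whereas without those of pig 1 or pig 3 it passed (0.0175 and 0.0156). With the pig as a block the log2 fold change was 0.91 (adjusted p = 0.282).

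**Figure D1:**
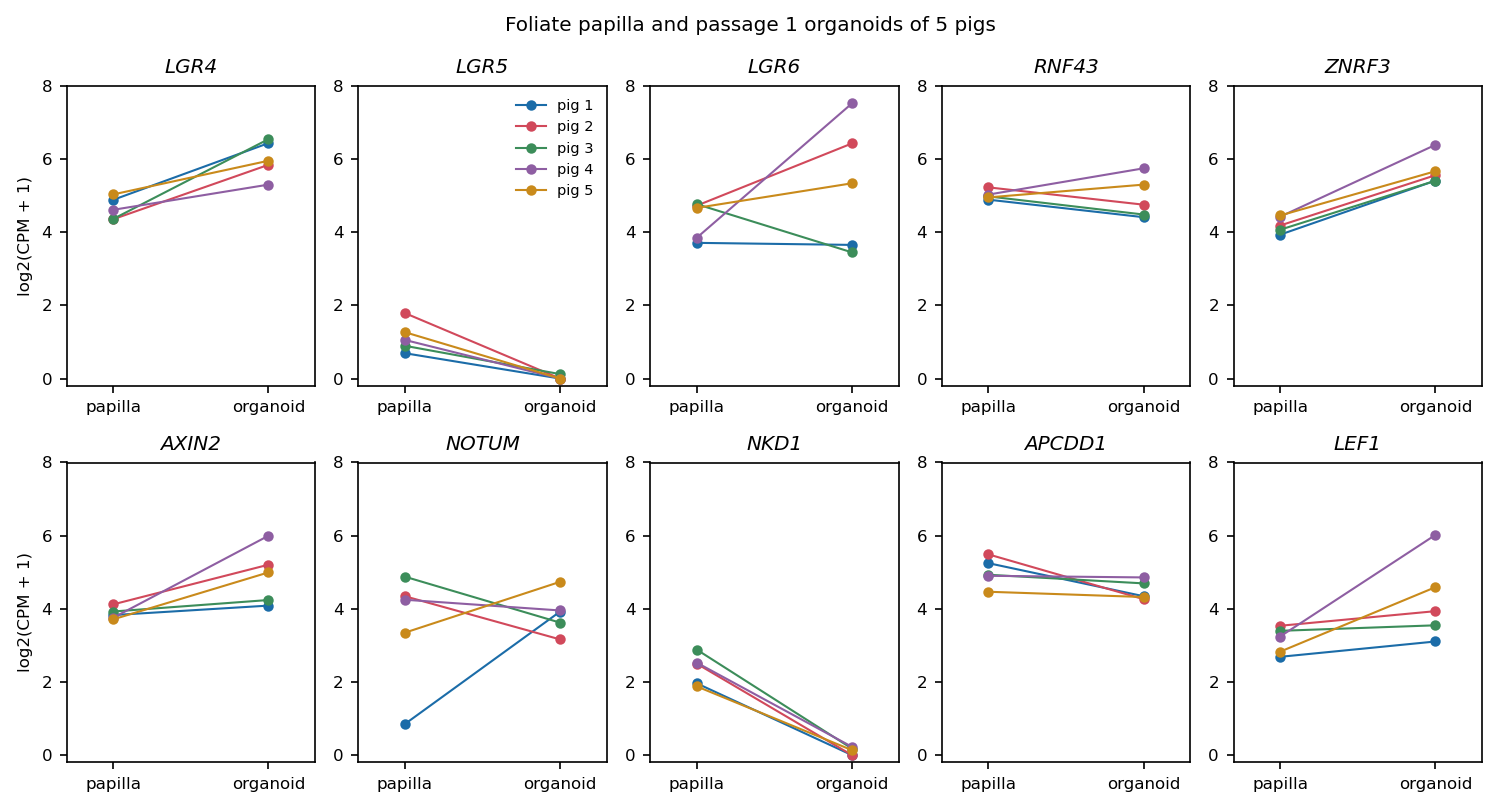
Levels of the 10 genes as log2(CPM + 1) in the papilla and the passage 1 organoids of each of 5 pigs; each point is 1 library and a line joins the libraries of 1 pig. LGR4, ZNRF3, AXIN2 and LEF1 lines climb in all 5 pigs, LGR5 and NKD1 lines drop to near 0, and LGR6 and NOTUM lines cross.

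The paired ligases behaved differently. ZNRF3 was at 14.3, 17.2, 15.8, 20.5 and 21 CPM in papillae and at 41.6, 46.2, 41.5, 82.9 and 49.9 CPM in organoids. The groups did not overlap, and the log2 fold change was 1.56 ± 0.21 (SE; 2.95-fold, edgeR adjusted p = 5.32e-05). RNF43 was at 28.7, 36.5, 30.6, 31.7 and 30.0 CPM in papillae and at 20.3, 26.0, 21.4, 52.8 and 38.5 CPM in organoids. It was higher in the organoids of pigs 4 and 5 and lower in those of pigs 1, 2 and 3, with means of 31.5 ± 3.02 and 31.8 ± 13.8 CPM and a log2 fold change of 0.01 ± 0.25 (SE; adjusted p = 0.964).

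The balance of the ligases can be read within each library, where scaling between libraries plays no part. Per kilobase of exon, RNF43 made up 76.3, 77.2, 75.6, 71.2 and 69.5% of the sum of RNF43 and ZNRF3 in the papillae of pigs 1 to 5, and 43.8, 47.3, 45.2, 50.5 and 55.2% in their organoids. All 5 organoid shares lay below all 5 papilla shares, a difference of -25.6 percentage points (two-sided exact permutation p = 0.00794, the smallest that 5 against 5 can give, 0.0476 adjusted over 6 tests of shares). This permutation treats the libraries as unpaired although they pair by pig, and it was added after the shares were seen. Its p-value is therefore a description only. The share of LGR4 in the sum of the 3 receptors ran from 34.4 to 63.2% in papillae and from 14.1 to 87.8% in organoids, where LGR6 made up nearly all of the rest. That difference did not pass (7.86 percentage points, exact permutation p = 0.611, adjusted 0.733).

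Of the feedback inhibitors, AXIN2, a scaffold of the β-catenin destruction complex and a common reporter of the pathway, was at 13.2, 16.4, 14.2, 12.5 and 12.1 CPM in papillae. In organoids it was at 16.0, 35.9, 17.9, 62.9 and 30.9 CPM. It was higher than in the papilla of the same pig in 5 of 5 pigs, while the lowest organoid library lay just under the highest papilla. The log2 fold change was 1.26 ± 0.33 (SE; edgeR adjusted p = 0.00576).

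NOTUM, a secreted enzyme that removes the lipid from Wnt proteins, was uneven already in tissue, at 0.803, 19.3, 28.4, 18 and 9.18 CPM. The organoids were at 14.2, 7.95, 11.3, 14.5 and 25.7 CPM. Pig 1 had the lowest papilla by far, and the gene was higher in the organoids of pigs 1 and 5 and lower in those of the other 3. The log2 fold change was -0.04 ± 0.62 (SE; adjusted p = 0.955).

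NKD1, which binds the adaptor Dishevelled, was at 2.90, 4.66, 6.39, 4.77 and 2.68 CPM in papillae, 381 counts in all. In organoids it was at 0, 0, 0.132, 0.170 and 0.0985 CPM, 11 counts in all. The groups did not overlap, and the log2 fold change was -5.61 ± 0.62 (SE; edgeR adjusted p = 1.34e-05). NKD1 and LGR5 were thus the members nearly absent from the passage 1 organoids.

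APCDD1, a membrane protein that binds Wnt and LRP receptors, was at 37.0, 43.9, 29.5, 28.9 and 21.1 CPM in papillae and at 19.3, 18.2, 24.9, 28 and 19 CPM in organoids. It was lower in 5 of 5 pigs, although the groups overlapped. The log2 fold change of -0.55 ± 0.20 (SE; edgeR adjusted p = 0.0308) did not hold when the pig entered as a block (adjusted p = 0.058), and 8 of 16 alternatives left it above the threshold (adjusted p from 0.00913 to 0.32 over all 16). Leaving out the papilla of pig 1 or 2, or the organoids of pig 1, 2 or 5, was enough to end the call, with adjusted p of 0.0728, 0.103, 0.07, 0.0762 and 0.0732.

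LEF1, the partner of β-catenin on DNA, was at 5.44, 10.6, 9.54, 8.46 and 6.10 CPM in papillae and at 7.61, 14.3, 10.7, 63.9 and 23.1 CPM in organoids. It was higher in 5 of 5 pigs, with overlapping groups and with pig 4 far above the other organoids. The log2 fold change was 1.58 ± 0.52 (SE; edgeR adjusted p = 0.0194). It was 0.81 without the organoids of pig 4 (adjusted p = 0.0433), and limma-voom did not call it (adjusted p = 0.101).

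Stromal and gland markers moved with this comparison. Summed over its list, fibroblast markers were at 1851 to 6905 CPM in papillae and 0.779 to 3.12 CPM in organoids, skeletal muscle markers at 244 to 7364 and 0.136 to 0.407 CPM, nerve and Schwann cell markers at 313 to 439 and 1.68 to 10.1 CPM, and gland markers at 47074 to 246721 and 1.28 to 9.44 CPM. The summed levels of these lists were thus far lower in organoids, with the muscle markers MYH2 and DES at 0 counts. All 6 fibroblast, 6 muscle, 5 nerve and 5 gland markers were called lower. Endothelial markers summed to 324 to 500 CPM in papillae and 21 to 114 CPM in organoids, with 4 of 5 called lower. Most of that organoid sum was KDR (47.4 ± 36.8 CPM, not called), while PECAM1 was at 2.40 ± 0.427 CPM. Immune markers summed to 63.5 to 94.7 and 19.6 to 86.2 CPM, with 4 of 5 tested called lower and 1 higher. The higher one, CD68, made up most of the organoid sum (48.9 ± 26.4 CPM), and PTPRC, CD3E and CD3D were at 0 counts there. Markers of basal epithelium summed to 9083 to 12065 and 2803 to 4839 CPM, with 3 of 5 called lower, KRT5 among them (4.83-fold), and 2 higher. Taste cell markers summed to 100 to 249 CPM and 34.3 to 53.9 CPM, with 4 of 6 called lower, and markers of simple epithelium to 705 to 1502 and 3782 to 8480 CPM, with 5 of 5 called higher. The part of these cell types in the members' values was not tested.

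The passage 1 organoids also differed among themselves in how they ranked over the 10 genes. Pig 4 was the highest of the 5 for LGR6, RNF43, ZNRF3, AXIN2, NKD1, APCDD1 and LEF1, and the lowest for LGR4. Its LGR6 and LEF1 levels were 4.64 and 4.47 times the median of the 5 libraries. Pigs 1 and 3 had the lowest LGR6, RNF43, ZNRF3, AXIN2 and LEF1, and the highest LGR4. The summed proliferation markers (MKI67, TOP2A, CDK1, CCNB1, MCM2 and PCNA) were at 60.8, 156, 62.8, 947 and 190 CPM in pigs 1 to 5, so that pig 4 was highest there too and pigs 1 and 3 lowest. In the papillae of the same pigs these markers summed to 118 to 137 CPM. The part of proliferation in the spread of the members was not tested.

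**Figure D2:**
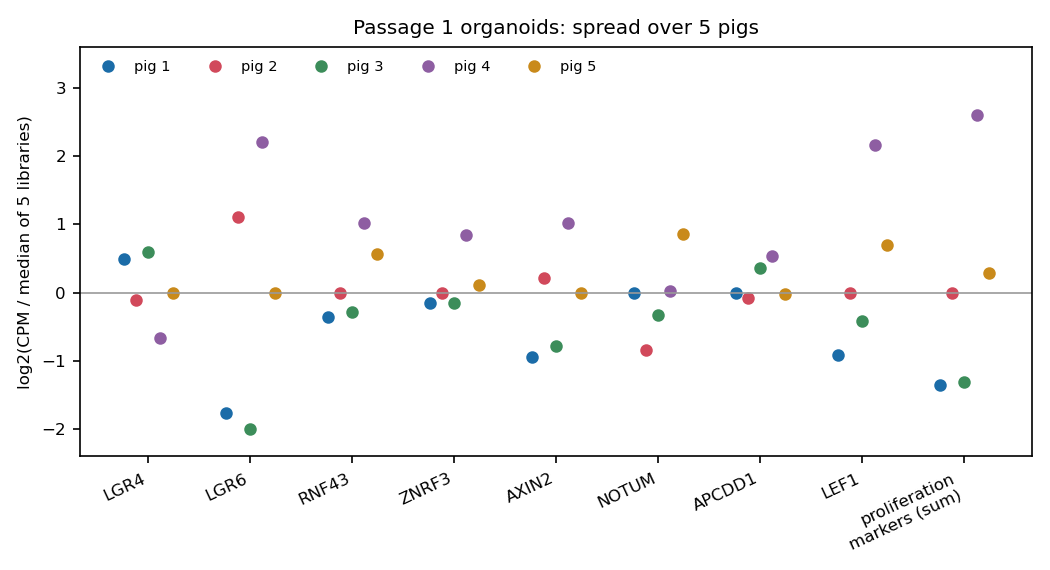
Passage 1 organoids of 5 pigs: each point is the CPM of 1 library divided by the median of the 5, on a log2 axis, for 8 genes and for the sum of 6 proliferation markers. LGR5 and NKD1, with 2 and 11 counts, are not drawn. Pig 4 lies highest for LGR6, RNF43, ZNRF3, AXIN2, APCDD1, LEF1 and the proliferation sum and lowest for LGR4.

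The rest of the pathway gave the setting. Among 74 tested genes of 8 Wnt lists, 22 rose and 32 fell in organoids, with a median log2 fold change of -0.28, against 67.5% of all genes called and a median of -0.01. With library size alone as scaling the split was 28 higher and 27 lower, a scaling that moved the median of all genes to 0.28. The R-spondin genes had no counts in the organoids: RSPO1, RSPO2, RSPO3 and RSPO4 had 128, 21, 25 and 5 counts over the papillae and 0 afterwards, so RSPO1, the one tested, was at least 64.9-fold lower. R-spondin 2 protein was supplied in the medium of these organoids.

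Wnt ligand genes mostly fell, with 3 of 16 higher and 10 lower. WNT10B fell from 12.7 ± 2.47 to 0.887 ± 0.316 CPM and WNT6 from 9.14 ± 2.58 to 0.311 ± 0.154 CPM, while WNT5B, a ligand of non-canonical signalling, rose from 10.8 ± 1.52 to 133 ± 37.0 CPM (SD, n = 5; edgeR adjusted p = 1.11e-06, 1.75e-06 and 2.05e-07). WNT8B rose 2.45-fold, and WLS, which carries Wnt proteins to the cell surface, 2.75-fold. Secreted antagonists and Kremen receptors had 1 of 11 higher, KREMEN1 at 1.51-fold, and 8 lower. SFRP2, a decoy of Wnt proteins, fell 110-fold, and SFRP4, with 1285 counts in papillae and 0 in organoids, was at least 651-fold lower.

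Frizzled and LRP receptors were divided, with 6 of 12 higher and 5 lower. FZD7 rose 7.35-fold to 363 ± 87.5 CPM and FZD6 4.92-fold, whereas FZD2 fell 5.61-fold and FZD4 1.99-fold. Cytoplasmic components had 7 of 13 higher, among them DVL2 (3.13-fold) and TNKS, a tankyrase that marks AXIN proteins for destruction (3.58-fold), and 3 lower, among them APC2 (4.72-fold) and DVL1 (2.10-fold). Of the 8 nuclear factors, TCF7 rose 2.37-fold and TCF7L1 fell 2.59-fold, and 3 rose without the organoids of pig 4. Other target genes had 3 of 11 higher and 4 lower: SOX9 rose 4.99-fold and CD44 2.53-fold, while EPHB2, with 6 counts in the organoids, fell 208-fold and ASCL2 5.95-fold. Target genes thus went in opposite directions, as the members did.

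Removal of FGF10 from LPM tests whether these genes respond to a growth factor other than their own ligands. NOTUM alone passed the test, with a 1.44-fold rise, and the other 7 tested members differed by 0.16 or less on the log2 scale. LGR5 and NKD1 were too low to test. In this comparison 1.78% of 14262 genes were called, 0.582% higher and 1.2% lower, and the 8 tested members had a median log2 fold change of 0.12, beside 0.00 over all genes.

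NOTUM was at 25.4, 25.9 and 26.4 CPM in LPM and at 38.7, 32.9 and 40.6 CPM in LPM(-)FGF10. The lowest library without FGF10 lay above the highest with it. The log2 fold change was 0.53 ± 0.07 (SE; edgeR adjusted p = 3.22e-05), and NOTUM was called in all 12 alternatives, with log2 fold changes of 0.46 to 0.62.

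Small upward shifts were seen in other members without a call. AXIN2 was at 31.6, 35.5 and 36.0 CPM in LPM and 39.7, 36.3 and 39.3 CPM without FGF10, a log2 fold change of 0.16 ± 0.06 (SE; edgeR adjusted p = 0.244). LGR4 was at 54.0, 51.9 and 56.3 against 62.2, 57.2 and 58.2 CPM (adjusted p = 0.251). ZNRF3 was at 63.9, 64.1 and 66.3 against 72.2, 66.2 and 73.8 CPM (adjusted p = 0.251), with groups that overlapped only between 66.2 and 66.3 CPM. None of these differences passed the test.

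RNF43 was at 26.2, 25.5 and 24.1 against 28.2, 26.6 and 27.9 CPM (edgeR adjusted p = 0.466), and LEF1 was at 17.8 in each LPM library against 19, 18.6 and 19.8 CPM (adjusted p = 0.634). LGR4, RNF43, AXIN2, NOTUM and LEF1 had no overlap between groups, all 5 with the higher values without FGF10. Over all genes tested, 16.6% had groups that did not overlap, 8.09% with higher and 8.55% with lower values without FGF10. LGR6, with 37.3, 41.3 and 45.8 against 41.3, 30.6 and 47.9 CPM, and APCDD1, with 19.9, 17.9 and 18.1 against 18.4, 16.3 and 17.7 CPM, overlapped (adjusted p = 0.886 and 0.682).

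LGR5 had 0 counts in all 6 libraries, which allows at most 0.0435 CPM with FGF10 and 0.0474 CPM without it. NKD1 had 3 counts in each group. RNF43 made up 38.4 ± 1.49% of the ligase sum with FGF10 and 38.4 ± 0.685% without it (SD, n = 3; exact permutation p = 1), and LGR4 50.6 ± 2.23% and 54.1 ± 5.32% of the receptor sum (p = 0.4). With 3 against 3 the smallest p is 0.1, so neither share could pass.

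In the wider pathway 6 of 64 tested genes rose without FGF10 and none fell (median log2 fold change 0.03, beside 0.00 over all genes), where 0.582% of all genes rose and 1.2% fell. They were WNT8B (1.35-fold), FZD7 (1.12-fold), the antagonists KREMEN1 (1.13-fold) and SFRP1 (1.37-fold), and the target genes PROX1 (1.27-fold) and SOX9 (1.12-fold), with edgeR adjusted p from 0.00886 to 0.0495. The count of genes that rose rested on single libraries: it was 0 without replicate 1 of LPM(-)FGF10, 1 without replicate 2 of LPM and 3 without replicate 1 of LPM. DESeq2 called 4 list genes higher and none lower. That none fell did not hold in every alternative: 3 were called lower with no filter on low counts, 2 without replicate 3 of LPM or of LPM(-)FGF10, and 1 without replicate 1 of LPM, without replicate 2 of LPM(-)FGF10 or with a replicate block. CTNNB1, the gene of β-catenin, was at 962 ± 22.5 and 985 ± 18 CPM (SD, n = 3; edgeR adjusted p = 0.795), WLS at 172 ± 2.11 and 172 ± 7.84 CPM (0.991), and BCL9L, a co-activator of β-catenin, at 258 ± 3.51 and 249 ± 7.29 CPM (0.625). Proliferation markers summed to 88.7 to 113 CPM with FGF10 and 76.3 to 96.6 CPM without it, with 1 of 6 called lower.

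**Figure D3:**
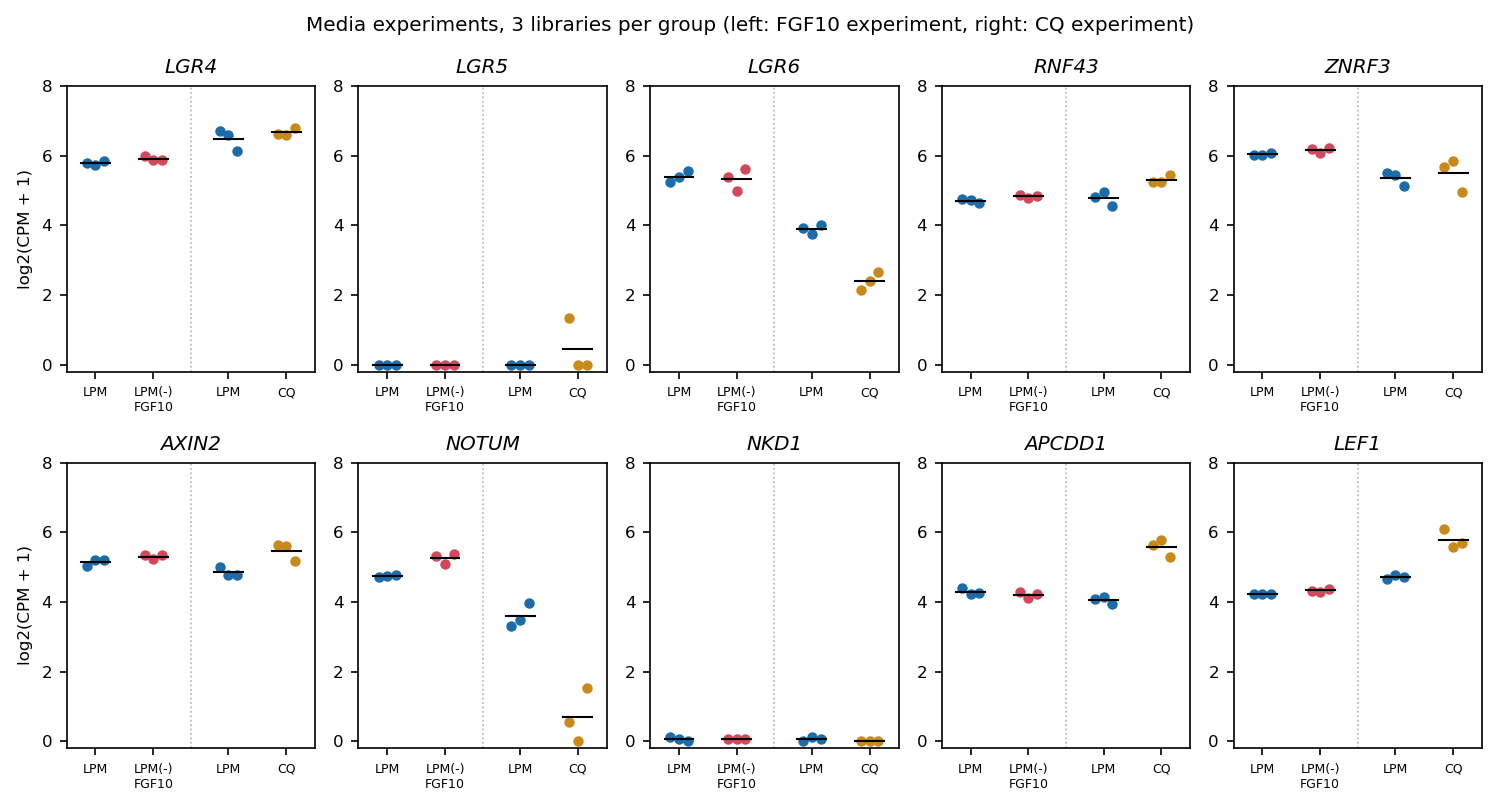
Levels of the 10 genes as log2(CPM + 1) in the media experiments; each point is 1 library (3 per group), black bars are means of the plotted values, and the dotted line parts the FGF10 experiment (left) from the CQ experiment (right), which were scaled separately. NOTUM sits higher in LPM(-)FGF10 than in LPM and lower in CQ, and APCDD1 and LEF1 sit higher in CQ.

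Finishing in CQ was compared with LPM throughout. In CQ the members did not move together: APCDD1, LEF1, AXIN2 and RNF43 rose, by 1.45-fold to 3-fold, while NOTUM and LGR6 fell, LGR6 by 3.21-fold. LGR4 and ZNRF3 did not pass the test, and LGR5 and NKD1 were too low to test. Thus 6 of 8 tested members were called, 4 higher and 2 lower, where 47.9% of all 13827 genes were called, 23.1% higher and 24.8% lower. Their median log2 fold change was 0.36, beside -0.07 over all genes. The same 6 had no overlap between groups, as had 61.1% of all genes tested, 28.2% with higher and 32.9% with lower values in CQ.

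LGR6 was at 14.3, 12.5 and 15.1 CPM in LPM and at 3.43, 4.27 and 5.31 CPM in CQ. Every CQ library lay below every LPM library, with a log2 fold change of -1.68 ± 0.27 (SE; edgeR adjusted p = 0.000873). LGR4 was at 104, 95.7 and 68.6 CPM in LPM and 97.7, 95.8 and 109 CPM in CQ (log2 fold change 0.17 ± 0.16, adjusted p = 0.412). LGR5 had 23 counts in CQ, all in replicate 1 (1.55 CPM), and 0 in the other 5 libraries, and 23 lies below the limit of 37.8 counts set for CQ.

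The receptor pool in CQ was therefore almost all LGR4. LGR4 made up 83.0 ± 4.25% of the receptor sum per kilobase in LPM and 93.9 ± 0.817% in CQ (SD, n = 3; two-sided exact permutation p = 0.1, the smallest possible). The ranges, 78.1 to 85.8% and 93.0 to 94.6%, did not overlap.

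RNF43 was at 27.1, 30.1 and 22.6 CPM in LPM and 37.1, 36.6 and 42.3 CPM in CQ, a log2 fold change of 0.54 ± 0.15 (SE; edgeR adjusted p = 0.0177). The groups did not overlap, but the call was lost without replicate 1 or 3 of LPM or replicate 3 of CQ (adjusted p = 0.0613, 0.0501 and 0.0566). ZNRF3, at 44.2, 42.8 and 34.2 against 50.0, 56.9 and 30.3 CPM, overlapped (0.18 ± 0.23, adjusted p = 0.544). RNF43 made up 51.3 ± 1.71% of the ligase sum in LPM and 58.0 ± 9.76% in CQ (exact permutation p = 0.3).

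APCDD1 showed the largest rise among the members in CQ, from 15.8, 16.7 and 14.4 CPM to 48.8, 53.8 and 38.2 CPM. All CQ libraries lay above all LPM libraries, with a log2 fold change of 1.59 ± 0.17 (SE; edgeR adjusted p = 8.33e-05). AXIN2 was at 30.8, 26.4 and 26.3 CPM in LPM and 48.8, 48.0 and 34.8 CPM in CQ, a log2 fold change of 0.66 ± 0.17 (adjusted p = 0.0104). Its call was lost without replicate 2 of LPM (adjusted p = 0.0599).

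NOTUM went the other way, from 8.94, 10.1 and 14.6 CPM to 0.471, 0 and 1.90 CPM. Its 7, 0 and 30 counts in CQ, 37 in all, lie about at the limit set for CQ, against 741 in LPM. The groups did not overlap, and the log2 fold change was -3.82 ± 0.88 (SE; edgeR adjusted p = 0.00627). It was -5.60 without replicate 3 of CQ and -3.25 without replicate 2, so the size of the fall depends on which CQ libraries are counted. NKD1 had 3 counts in LPM and 0 in CQ.

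LEF1 was at 24.2, 26.4 and 25.4 CPM in LPM and at 67.3, 46.8 and 50.2 CPM in CQ. The CQ libraries all lay higher, with a log2 fold change of 1.11 ± 0.16 (SE; edgeR adjusted p = 0.000554). Proliferation markers moved in the opposite direction at the same time, from a sum of 468 to 516 CPM in LPM to 47.9 to 59.2 CPM in CQ, with 6 of 6 called lower. Markers of basal epithelium summed to 4273 to 4408 CPM and 3360 to 3564 CPM, with 4 of 5 called lower, and those of taste cells to 23.8 to 32.5 and 20.1 to 27.2 CPM. Of 4 taste markers tested 1 was called lower, PKD2L1, from 3.05 ± 0.772 to 0.126 ± 0.219 CPM (SD, n = 3; edgeR adjusted p = 0.013), a CQ level under the limit of 0.804 CPM. The part of these, or of the high variance of the CQ libraries, in the members' values was not tested.

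**Figure D4:**
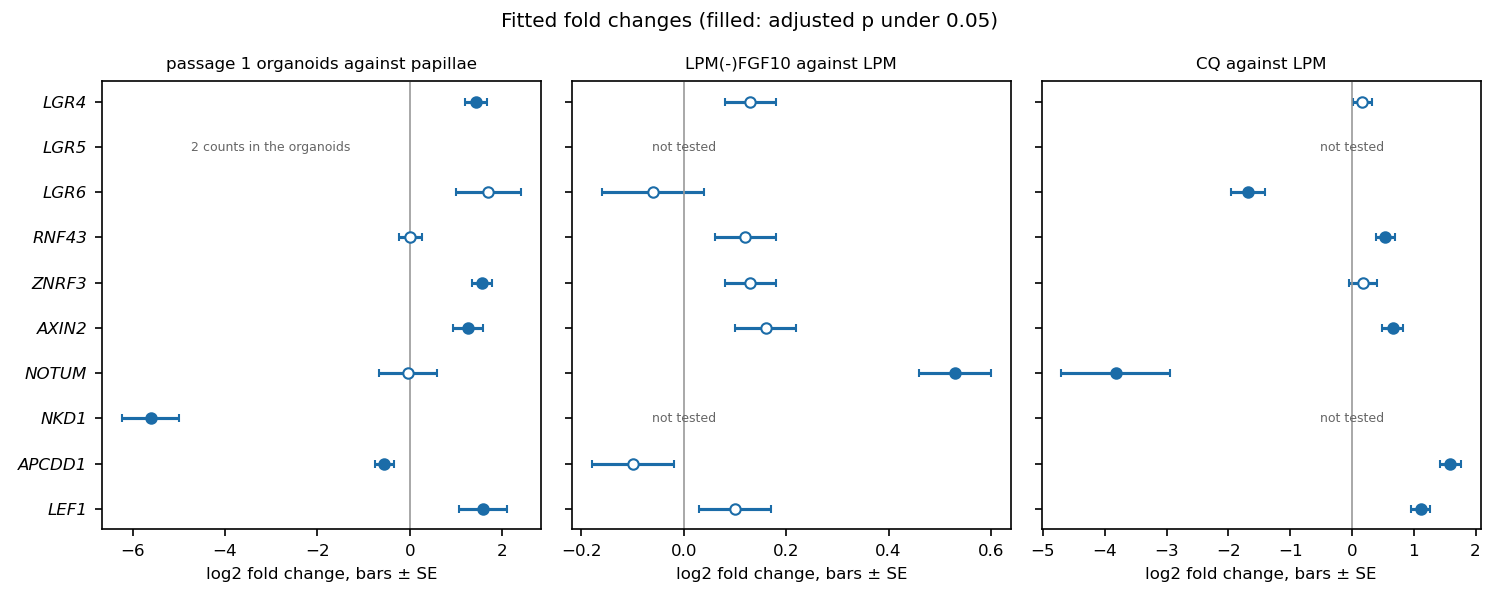
Log2 fold changes of the 10 genes in the 3 comparisons, with bars of 1 SE from edgeR's quasi-likelihood fit; filled points have an adjusted p under 0.05, and the 3 panels have different scales. LGR5 is written out in the first panel because the organoids had 2 counts. RNF43 lies at 0.01, 0.12 and 0.54, while NOTUM lies at -0.04, 0.53 and -3.82.

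Across the Wnt lists, 15 of 57 tested genes rose in CQ and 25 fell (median log2 fold change -0.36, beside -0.07 over all genes), where 23.1% and 24.8% of all genes did. Receptors were mostly lower, with 7 of 12 lower and 1 higher. FZD7 fell 8.02-fold from 309 ± 45.5 to 38.6 ± 8.77 CPM, FZD1 fell 3-fold, and FZD9 rose 1.72-fold. CTNNB1 fell 2.52-fold from 1019 ± 32.9 to 405 ± 18 CPM (SD, n = 3; edgeR adjusted p = 4.68e-06), and CSNK1A1, a kinase that primes β-catenin for breakdown, fell 1.32-fold.

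Other cytoplasmic components rose, 7 of 13 in all, among them DVL1 (2.42-fold) and AXIN1 (2.06-fold). Of 9 ligand genes 3 rose and 4 fell: WNT11 rose 17.6-fold to 162 ± 18.1 CPM and WNT4 5.03-fold, while WNT5A fell 5.28-fold and WNT5B 5.63-fold. WLS fell 1.26-fold. Of 4 tested antagonists 3 fell. DKK3 fell 10.4-fold, and KREMEN2, with 102 counts in LPM and 0 in CQ, was at least 1.96-fold lower against the CQ limit.

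Nuclear factors had 3 of 8 lower, among them TLE3, a co-repressor (3.21-fold), and TCF7L1 (7.64-fold), and PYGO1 higher (2.99-fold). Other target genes had 5 of 9 lower, with the cyclin CCND1 down 12.0-fold and CD44 2.64-fold, and 3 higher, with MYC up 1.54-fold. EPHB2 had 0 counts in LPM and 21 to 24 in each CQ library, 67 in all. That level was 30.7 times the LPM limit, but with the scatter of the CQ libraries this is not a firm lower bound.

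Levels can be set against each other only per kilobase of exon, as RPKM on 1 TMM scale over all 22 libraries, and the experiments were run separately and counted with different annotations, in which the models of the 10 genes are the same. In papillae APCDD1 was the highest member at 11.3 ± 3.18 RPKM, followed by RNF43 at 6.42 ± 0.645, and NKD1, LEF1 and LGR5 were the lowest at 0.931 ± 0.331, 0.951 ± 0.264 and 0.358 ± 0.202 RPKM (SD, n = 5). In passage 1 organoids LGR6 and LGR4 had the highest means, at 12.0 ± 13.3 and 9.45 ± 3.05 RPKM (SD, n = 5). The first place of LGR6 rested on pig 4: its median was 7.02 RPKM against 8.52 RPKM for LGR4, and without pig 4 its mean was 6.63 ± 6.46 RPKM, below LGR4 at 10.4 ± 2.46 and APCDD1 at 6.93 ± 0.989 RPKM (SD, n = 4). In CQ the order was led by APCDD1 at 15.4 ± 2.59 and LGR4 at 13.7 ± 0.964 RPKM (SD, n = 3).

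Over the 6 groups each gene had its own order. LGR4 was lowest in papillae at 3.59 ± 0.788 RPKM and highest in CQ, with overlapping ranges among CQ, the LPM libraries beside it, passage 1 organoids and LPM(-)FGF10 when neighbours are compared. ZNRF3, AXIN2 and LEF1 were likewise lowest in papillae, at 2.26 ± 0.350, 2.80 ± 0.380 and 0.951 ± 0.264 RPKM. Their next higher group by mean did not overlap with papillae. Passage 1 organoids did overlap for AXIN2, with a minimum of 3.17 RPKM against a papilla maximum of 3.4 RPKM. They also did for LEF1, with 0.877 against 1.27 RPKM, but not for ZNRF3. LEF1 in CQ, at 6.04 ± 1.19 RPKM, stood clear of the next group by mean, the LPM libraries of the same experiment at 2.88 ± 0.126 RPKM. It was not clear of passage 1 organoids, which ran from 0.877 to 7.48 RPKM against 5.16 to 7.39 RPKM in CQ.

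LGR6 had another order of means, from 12.0 ± 13.3 RPKM in passage 1 organoids over 7.32 ± 0.721 and 7 ± 1.48 RPKM with and without FGF10 to 3.78 ± 1.3 RPKM in papillae, 2.50 ± 0.263 RPKM in the LPM controls of CQ and 0.751 ± 0.166 RPKM in CQ. Without pig 4 the passage 1 mean of 6.63 RPKM lay below both groups of the FGF10 experiment. Ranges parted between LPM(-)FGF10 and papillae and between that LPM group and CQ. NOTUM was highest in LPM(-)FGF10 at 8.64 ± 0.866 RPKM and lowest in CQ at 0.180 ± 0.226 RPKM, and each of these stood clear of its neighbour by mean. The CQ range, 0 to 0.433 RPKM, still overlapped that of papillae, 0.199 to 6.95 RPKM. RNF43 varied least of the members with high counts, from 4.88 ± 0.233 to 7.32 ± 0.620 RPKM, and all neighbours in its order overlapped.

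The LPM libraries of the separate experiments were not alike. LGR6 was at 7.32 ± 0.721 RPKM in the FGF10 experiment and 2.50 ± 0.263 RPKM in the CQ experiment, NOTUM at 6.02 ± 0.0872 and 2.64 ± 0.724 RPKM, and LGR4 at 7.49 ± 0.280 and 12.5 ± 2.52 RPKM (SD, n = 3 each). Proliferation markers, scaled within each experiment, summed to 88.7 to 113 CPM in the first and 468 to 516 CPM in the second. The LPM group of the CQ experiment had the higher proliferation sum and the lower LGR6, and among the passage 1 organoids pig 4 was highest for both. A link between proliferation and LGR6 was not tested. The gene models are the same in both annotations, while the run and any difference in medium cannot be told apart.

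**Figure D5:**
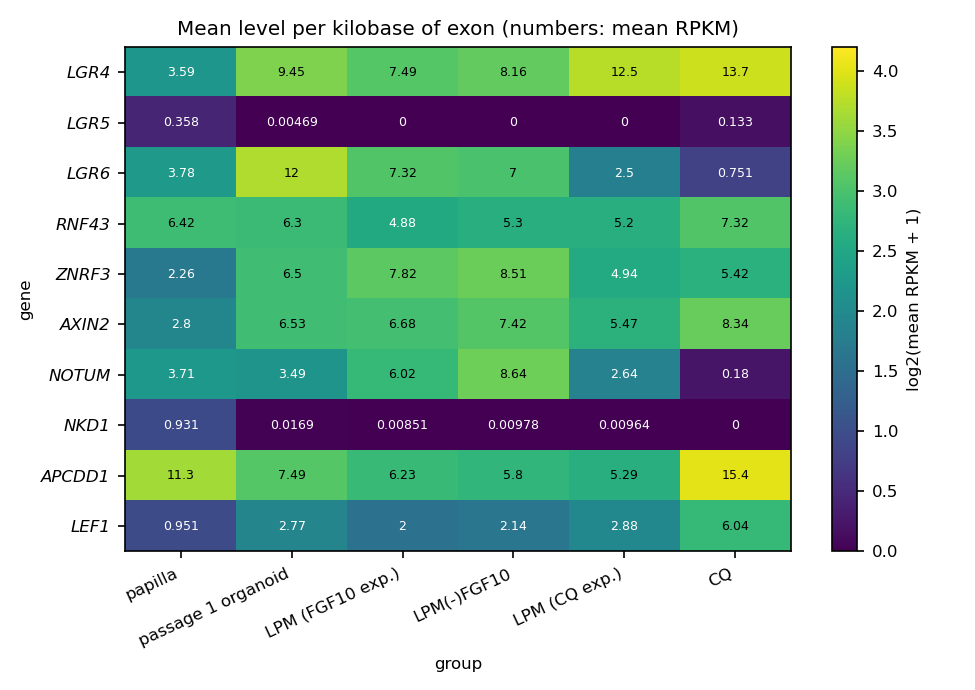
Mean level of each gene (rows) in each of 6 groups (columns) in RPKM, on 1 TMM scale over 22 libraries; colour is log2(mean RPKM + 1) and the number is the mean RPKM. APCDD1 leads in papillae at 11.3 RPKM and in CQ at 15.4 RPKM, and LGR5 and NKD1 are below 1 RPKM in every group.

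For each member the 3 genes of most similar pattern were found by Pearson's r of log2(CPM + 1) over the 22 libraries, among 14799 genes, as a description of libraries that share groups and experiments. LGR4 was most like N4BP2L2, ARCN1 and AFTPH (r = 0.979, 0.978 and 0.972), LGR5 like RASGEF1C, GPR1 and CPNE9 (0.956, 0.924 and 0.919), and LGR6 like LHPP, WDR6 and LOC100738955 (0.920, 0.916 and 0.876). RNF43 was most like PAICS, GLRX and FDPS (r = 0.892, 0.861 and 0.853), and the genes most like ZNRF3 included NIPAL3 and ELOVL5 (0.947 and 0.946). No member was among the 3 genes most like another member. AXIN2 was most like XPNPEP1, SLC23A2 and LOC100127131 (r = 0.934, 0.917 and 0.915), and NOTUM like IGSF9, PGGHG and LOC106507881 (0.903, 0.879 and 0.878). NKD1 was most like RASGRP2, CNTFR and ALOX12B (r = 0.995, 0.995 and 0.994), APCDD1 like LOC100624785, GPS2 and PRDM4 (0.924, 0.921 and 0.914), and LEF1 like HSPD1, LOC100624700 and RAN (0.944, 0.941 and 0.934). Without the CQ libraries 9 of the 30 genes found stayed among the 3 most similar, and RNF43 was then most like DNMT1, E2F1 and PASK (r = 0.944, 0.914 and 0.901), the first of which copies DNA methylation and the second of which drives entry into the cell cycle.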

How the data were processed

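Poly-A selected RNA of 22 pig libraries was sequenced. The deposited files give raw counts by gene: the authors used featureCounts on read pairs, version 2.0.3 for 16 libraries and 2.0.6 for the 6 of the CQ experiment, per the file headers. Per the same headers, strand was ignored, a pair over several genes was assigned to all of them, and multi-mapping pairs were dropped. FastQC 0.11.9, STAR 2.7.10b, MultiQC 1.14 and DESeq2 come from the submitters' processing notes. An entry without a gene name (0.326 to 0.477% of counts, CQ experiment) was left out.

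From the counts, each pair of groups was fitted in edgeR 4.0.16 (R 4.3.3; filterByExpr, TMM, quasi-likelihood F test, no block, Benjamini-Hochberg over all genes). Alternatives were other scalings, no filter, DESeq2 1.42.0, limma 3.58.1 (voom, and with quality weights in CQ), a replicate block and leaving out each library. For CQ, counts divided by their variance to mean ratio were added after seeing the data, as were the tests of shares, the CQ limit and levels without pig 4. The fits were tested on simulated data.

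Papilla and organoid libraries pair by pig, per the labels (same-pig correlation of deviations 0.032 to 0.092). Totals were 14.67 to 27.77 M counts. No 2 replicates agreed within sampling noise. All members are named. Of each other pathway list, up to 2 called genes per direction with the smallest p are named, or the most abundant where none was called, and for each member the 3 genes of highest correlation, except items that are not reported here. Cell type lists are given by their sums. RSPO2, RSPO3, RSPO4, KDR, CD68 and PKD2L1 were named after their values were seen. The members and lists were chosen with earlier results of these data known.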

Additional observations from a re-analysis of the deposited data

Results flagged for a closer look

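In groups of 5 libraries, a value was singled out where its gap to the nearest other library exceeded 0.71 of the whole range. Chance singles out about 1 in 20 groups of independent, normally distributed values. CPM values with zeros, from genes of the same libraries, do not meet that. The number of groups singled out therefore cannot be set against that rate. Of 40 groups examined, 20 of them of members, 6 had such a value, and no explanation was tested.

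The organoids of pig 4 had 3 of the 6: ZNRF3 at 82.9 CPM against 41.5 to 49.9 in the other 4, LEF1 at 63.9 CPM against 7.61 to 23.1, and summed proliferation markers at 947 CPM against 60.8 to 190. LGR5 was at 0.088 CPM in the organoids of pig 3 and at 0 in the other 4, a value that rests on 2 counts. Endothelial markers summed to 500 CPM in the papilla of pig 2, the highest of the 5, and to 114 CPM in the organoids of pig 5, again the highest of the 5.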

How the results depend on the processing

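Of 368 recomputed log2 fold changes of members, 330 kept their direction and their side of the threshold. LGR4, ZNRF3, AXIN2, LGR5 and NKD1 in organoids, NOTUM without FGF10, and LGR6, NOTUM, APCDD1 and LEF1 in CQ were called in every alternative run. Counts of members called stayed within 1.5 times: 6 to 8 in organoids, 1 without FGF10, 5 or 6 in CQ.

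The genes called without FGF10 numbered 254, but 429 with no filter on low counts, and 125 to 294 when single libraries were left out, 125 without replicate 2 of LPM and 128 without replicate 1 of LPM(-)FGF10. In organoids against papillae, 5281 higher and 5730 lower became 6771 and 4592 with library size alone, which also raised the nuclear factors called higher from 1 to 4 and lowered the other targets called lower from 4 to 2. LGR6 was called with it (edgeR adjusted p = 0.0264), as with no filter (0.0394) and DESeq2 (0.0181), while APCDD1 was not (0.32). The causes were not tested.

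Sign changes were limited to uncalled members. In organoids, RNF43 went to -0.05 with DESeq2 or its size factors, -0.07 with limma-voom and -0.08 with the replicate block, and ran from -0.23 to 0.16 without single libraries. NOTUM went to 0.19 with library size alone, 0.02 with no filter, 0.48 with limma-voom and 0.28 with the replicate block, and ran from -0.34 to 0.32 without single libraries. Without single libraries, LGR6 ran from -0.21 to 0.11 in the FGF10 comparison, and in CQ LGR4 ran from -0.00 to 0.27 and ZNRF3 from -0.03 to 0.39.

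For FGF10 the block left 3 list genes higher and 1 lower. With the replicate block, genes called numbered 10679, 234 and 6120 (organoids, FGF10, CQ), and APCDD1 in organoids was the 1 member whose call changed. Whether the numbers pair the libraries of the media experiments is not known. Correlations of same-numbered deviations ran from -0.062 to 0.078 with 1 of 3 libraries nearest its own number (FGF10). In CQ they ran from -0.029 to 0.034 with 2 of 3. Papillae and organoids of the same pig gave only 0.032 to 0.092, so correlations of this size cannot decide the question. LGR5 and NKD1 in all organoids, and NOTUM in CQ, had few counts or none, so the sizes of their changes are poorly known.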
